A study of Mus musculus with 8 samples.

Results

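Solute carriers are the membrane proteins that move sugars, amino acids, lactate, ions, metals, nucleosides and vitamins across the cell surface and the membranes of organelles. Carriers work as exchangers, as cotransporters driven by sodium or proton gradients, or as passive gates, and heart muscle relies on them for fuel, for creatine and carnitine, and for control of cell volume and pH. The genes described here are those whose symbol follows the pattern of this superfamily with the letter a after the family number, without the mitochondrial family Slc25a and without Slc2a1, Slc2a4, Slc4a1 and Slc8a1. By that rule 139 genes on 223 probes were members, out of 10225 named genes on an array of 28704 probes. Of these genes, 97 on 138 probes were measured, with at least 3 values per genotype, and 63 of them on all 8 arrays. The remaining 42 did not pass this filter and have no test. The symbol pattern also takes in 4 genes that encode no carrier, the measured Slc9a3r1 and Slc9a3r2 and the antisense symbols Slc6a19os and Slc7a6os, which have no test. Counts over the 97 measured or the 42 untested carriers include them.

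Hearts came from neonatal C57BL mice, either connexin43 null or wildtype, with 4 pools of 3 hearts per genotype. Gja1 encodes connexin43, a channel protein through which neighbouring heart muscle cells exchange ions and small molecules. By the sample descriptions each pool was labelled with Cy3 and hybridised to a 2-colour cDNA array together with 1 common reference in Cy5, a mixture of adult organs of both sexes that also contained heart, brain, kidney, liver and lung. The labels give no age in days, no sex and no litter for the hearts, and the null allele is not described further. In what follows, a ratio is the log2 of heart over reference after each array was centred on its median, and a difference is the null mean minus the wildtype mean of that ratio. The channel fields of the labels list the reference before the heart and name no dye, and no label states which way the deposited ratio runs. Heart over reference is therefore a likely direction. It rests on 10 sarcomere and heart muscle genes, whose median ratio lay above that of 10 marker genes of liver, kidney, neurons and lung on 8 of 8 arrays (0.64 to 0.81 against -2.86 to -0.70). Those heart genes were chosen after their values were seen, so the count of arrays is no independent test of the direction. With heart over reference, Gja1 also read lower in null than in wildtype hearts, as given below. Of 10 listed markers of working heart muscle, 2 were measured, Myl7 and Pln, and their mean ratio was 0.72 to 1.31 in null and 1.02 to 1.41 in wildtype hearts.

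Gja1 had ratios of -0.29, 0.25, 0.12 and 0.22 in null hearts, against 1.04, 1.31, 0.99 and 0.79 in wildtype hearts, and the groups did not overlap. Whether its 1 probe covers what the null allele lacks is not given here. Its difference was -0.95 (SE 0.15), with an adjusted p of 0.34 in limma, and the exact two-sided permutation test gave p = 0.0286, the smallest value that 8 arrays split into 4 and 4 allow. Values were present at 17879 to 20212 spots on null arrays and at 12971 to 23929 on wildtype arrays. Wildtype replicate 1 had the fewest, with values for 77 of the 97 carriers against 93 to 96 on each other array, and its median rank correlation with the rest was also the lowest, 0.576 against 0.663 to 0.792. The number of arrays limits precision, and the median standard error of a carrier's difference was 0.14. In bulk hearts, fewer cells of a type and less RNA per cell cannot be told apart.

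No carrier passed the test between genotypes. With limma and Benjamini-Hochberg adjustment over 11804 features, 0 of 97 carriers and 0 features in all (0%) had an adjusted p under 0.05, and the smallest adjusted p of a carrier was 0.55. At an unadjusted p under 0.05 there were 12 carriers (12.4%) beside 8.23% of all features. Of these, 11 had lower values in null hearts (11.3% of carriers, beside 6.13% of features) and 1 had higher values (1.03%, beside 2.1%). Leaving out wildtype replicate 1 gave 6 carriers with lower values in place of 11, beside 5.61% of features. Leaving out null replicate 2 gave 5, beside 4.27%, and leaving out null replicate 3 gave 6, beside 4.75%. Leaving out null replicate 1 gave 2 carriers with higher values in place of 1, beside 2.19% of features. Lower values were also the more common direction over the whole array, so that 67 of 97 carriers (69.1%) lay below 0, beside 59.1% of features, and 30 (30.9%) above 0, beside 40.9% of features. Without centring of the arrays, which puts the median of all features at -0.18, 86 carriers lay below and 11 above 0, and the features with p under 0.05 were 28 higher and 1364 lower, against 248 and 724 with centring. The median difference of the carriers was -0.07, and that of all features -0.04. Without wildtype replicate 3 the carrier median was -0.043, and without wildtype replicate 4 it was -0.10. With only probes that had a value on all 8 arrays it was -0.027 over 60 carriers, 35 of them below 0. The median of all features was then -0.025, so the carriers lay at the background. Carriers whose genotypes did not overlap numbered 2 with higher values in null hearts (2.06%, beside 2% of features) and 8 with lower values (8.25%, beside 5.54%).

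The 4 carriers with the smallest p-values whose promoters are tabulated by RefSeq for GRCm38.p6 are shown by their promoters, from 250 bases before to 50 after the first listed start, so that these genes' regulatory sequence stands beside their values. No measurement here reads these windows. They are Slc12a7 at chr13:73763410-73763709 (plus strand), Slc7a8 at chr14:54781837-54782136 (minus strand), Slc22a5 at chr11:53891654-53891953 (minus strand) and Slc13a4 at chr6:35308077-35308376 (minus strand). Capitals mark the GC box GGGCGG or its reverse complement CCGCCC, a short element typical of promoters rich in CpG.
Slc12a7: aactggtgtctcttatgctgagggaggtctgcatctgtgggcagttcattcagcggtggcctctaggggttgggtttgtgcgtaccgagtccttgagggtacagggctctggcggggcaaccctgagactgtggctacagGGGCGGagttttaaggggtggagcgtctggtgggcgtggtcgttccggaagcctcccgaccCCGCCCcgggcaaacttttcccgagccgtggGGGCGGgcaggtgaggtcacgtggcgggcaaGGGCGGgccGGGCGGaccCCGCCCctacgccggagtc
Slc7a8: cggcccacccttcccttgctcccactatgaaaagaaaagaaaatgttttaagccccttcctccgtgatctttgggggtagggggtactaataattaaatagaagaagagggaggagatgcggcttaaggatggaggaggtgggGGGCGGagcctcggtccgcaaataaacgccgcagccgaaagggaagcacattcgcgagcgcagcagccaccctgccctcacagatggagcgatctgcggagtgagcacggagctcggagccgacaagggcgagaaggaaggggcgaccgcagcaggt
Slc22a5: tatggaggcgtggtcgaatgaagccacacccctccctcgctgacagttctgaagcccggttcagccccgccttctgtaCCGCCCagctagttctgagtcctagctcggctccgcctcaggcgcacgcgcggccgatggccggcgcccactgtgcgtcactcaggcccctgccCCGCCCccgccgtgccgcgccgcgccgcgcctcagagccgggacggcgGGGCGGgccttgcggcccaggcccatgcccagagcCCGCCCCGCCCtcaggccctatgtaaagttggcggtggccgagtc
Slc13a4: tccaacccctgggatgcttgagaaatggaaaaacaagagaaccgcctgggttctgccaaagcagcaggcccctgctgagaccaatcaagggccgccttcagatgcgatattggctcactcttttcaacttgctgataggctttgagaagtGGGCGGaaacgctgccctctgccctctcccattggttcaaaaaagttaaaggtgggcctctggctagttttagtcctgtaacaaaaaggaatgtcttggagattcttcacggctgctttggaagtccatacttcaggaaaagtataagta
These windows hold 6 GC boxes for Slc12a7, 1 for Slc7a8, 5 for Slc22a5 and 1 for Slc13a4. They hold 23, 20, 34 and 6 CpG pairs in the same order. Of 79 measured carriers with a promoter in the table, 54 (68.4%) had a GC box on either strand, close to the 65.6% of 6096 tested genes with a promoter, while the share over all 27025 tabulated promoters was 35.9%. The median difference was -0.04 for the carriers with a GC box and -0.10 for the 25 without one, and nothing about a factor follows from either value.

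Relative to the mixed adult reference, most carriers were near or below the middle of the array in neonatal heart. The mean ratio was below 0 for 60 of 97 carriers in wildtype hearts, and it lay within 1 of 0 for 93. The shares over all features were not worked out, so these counts are not read as a trait of carriers. The median wildtype ratio was -0.07 for carriers and 0.03 for all features. Among carriers with values on all 8 arrays, the highest wildtype means belonged to Slc38a2, Slc6a8, Slc38a1, Slc16a1, Slc36a1 and Slc4a3. Slc38a2 encodes a sodium-coupled neutral amino acid transporter and averaged 0.96 ± 0.18 in null and 0.98 ± 0.14 in wildtype hearts (SD over 4 arrays per genotype). Slc16a1 encodes MCT1, which carries lactate, and averaged 0.60 ± 0.14 in null and 0.63 ± 0.23 in wildtype hearts (SD over 4 arrays per genotype), a difference of -0.03 (SE 0.13). Slc4a3, a chloride-bicarbonate exchanger known from heart, averaged 0.69 ± 0.11 in null and 0.51 ± 0.22 in wildtype hearts (SD over 4 arrays per genotype). The proton-coupled amino acid transporter gene Slc36a1 had the widest scatter of this group, 0.97 ± 0.68 in null and 0.60 ± 0.78 in wildtype hearts (SD over 4 arrays per genotype). Neighbours in this order differ by less than these spreads. Were the deposited ratio reference over heart, highest and lowest would change places and every difference would change sign. Gja1, the gene of the null allele, would then read higher in null than in wildtype hearts.

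At the low end stood Slc2a3, which encodes GLUT3, the glucose transporter best known from neurons. It read -2.47, -1.55, -1.48 and -1.69 in null hearts and -1.95, -1.90, -2.06 and -2.19 in wildtype hearts. Null replicate 1 was the lowest of all 8 arrays and the other null arrays were above all wildtype arrays, so the groups overlapped. Slc9a3r1 followed, a gene named for a sodium-proton exchanger but encoding the NHERF1 scaffold and no carrier, at -1.12 ± 0.20 in null and -0.87 ± 0.15 in wildtype hearts (SD over 4 arrays per genotype). Slc35a5, Slc4a5, Slc39a10 and Slc23a2 completed the 6 lowest, between -0.48 and -0.38 in wildtype hearts. Null and wildtype means, taken over 97 genes that share arrays and reference and are no independent replicates, correlated with Pearson r = 0.903 and Spearman rho = 0.813. With carriers measured on fewer arrays included, the wildtype means ran between -2.02 for Slc2a3 and 1.11 for Slc37a4, and the 4 beyond 1 of 0 were these, Slc27a2 at -1.82 and Slc34a2 at -1.28.

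**Figure D1:**
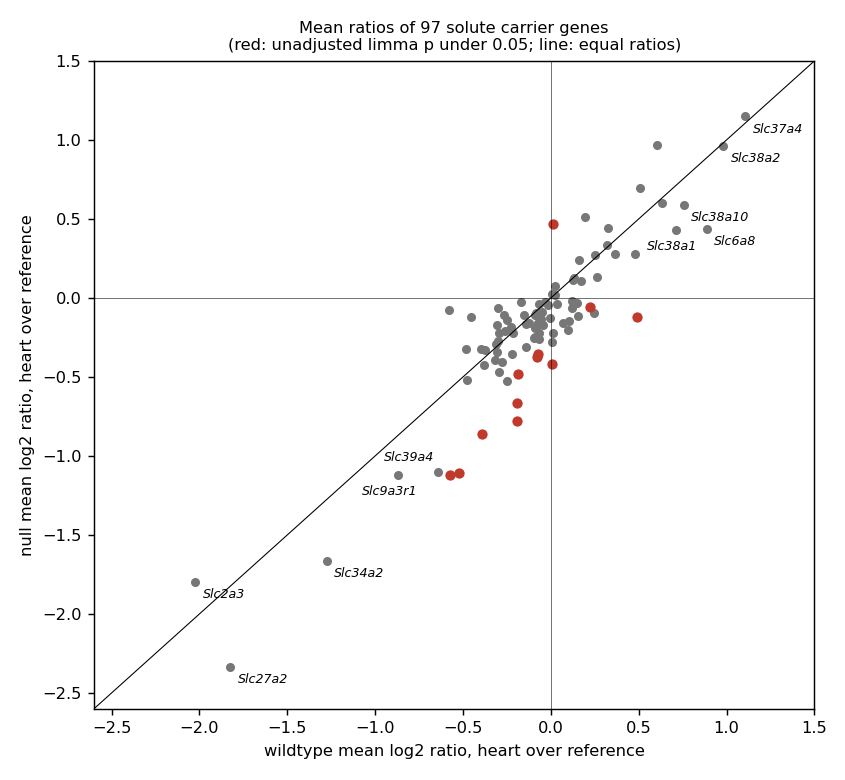
Mean log2 ratio of heart over reference for 97 solute carrier genes, wildtype on the horizontal and null on the vertical axis, with equal ratios on the line. Most genes lie near the line, 93 of 97 lie within 1 of 0 in wildtype hearts, and 11 of the 12 genes in red (unadjusted p under 0.05) lie below the line.

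The carriers of inorganic ions held the gene with the smallest p-value. Slc12a7 encodes the potassium-chloride cotransporter KCC4, which lets cells shed salt and shrink. It read 0.38, 0.41, 0.77 and 0.31 in null hearts, against 0.24, -0.04, -0.19 and 0.04 in wildtype hearts. All null arrays were above all wildtype arrays. The difference was 0.45 (SE 0.14), a 1.37-fold higher value, with an adjusted p of 0.55 in limma. Its 3 probes gave 0.50, 0.36 and 0.62, and the difference lay between 0.35 and 0.53 with any 1 array left out.

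Among the 15 measured carriers of inorganic ions 6 had higher and 9 lower values in null hearts (median difference -0.07). The sodium-sulfate cotransporter gene Slc13a4 had the largest difference of any carrier, -0.61 (SE 0.21, adjusted p = 0.55 in limma). Of its 3 probes, 1 passed the filter. That probe read -0.35, 0.13, -0.17 and -0.09 in null hearts, against 1.05, 0.27 and 0.14 on the 3 wildtype arrays where it had a value. Wildtype replicate 1 was far above the other wildtype arrays, and without it the difference was -0.33. Slc17a2, a member of a sodium-phosphate cotransporter family of kidney and liver, had -0.48 (SE 0.18), with values of -0.25, -1.05, -0.84 and -0.53 in null and -0.09, -0.28 and -0.19 in wildtype hearts. Null replicate 1 overlapped the wildtype arrays. Slc24a5, a sodium-calcium exchanger of pigment granules, had 0.24 (SE 0.15) over 3 arrays per genotype, and 0.15 without wildtype replicate 3.

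The 18 measured carriers of amino acids and peptides were 6 with higher and 12 with lower values in null hearts (median difference -0.05). Slc7a8, which encodes the large neutral amino acid transporter LAT2, read -0.80, -0.88 and -0.65 on the null arrays with a value, against 0.16, -0.26 and -0.47 on the wildtype arrays with a value, without overlap. Its difference was -0.59 (SE 0.18, adjusted p = 0.553 in limma), and -0.41 without wildtype replicate 1. Slc66a1, which encodes an exporter of cationic amino acids from lysosomes, had -0.29 (SE 0.12), with null values of -0.56 to -0.26 and wildtype values of -0.24 to 0.07, which do not overlap. Slc7a6, a light chain of a heteromeric amino acid transporter, had 0.32 (SE 0.19, adjusted p = 0.66 in limma), and 0.16 without wildtype replicate 1. The heavy chain shared by such transporters is encoded by Slc3a2, whose null values of -0.12 to -0.08 lay within the wildtype range of -0.18 to -0.02.

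For Slc6a8 and Slc38a1, wildtype replicate 1 stood far above all other arrays. The creatine transporter gene Slc6a8 read 0.39, 0.45, 0.42 and 0.48 in null hearts, against 1.78, 0.43, 0.63 and 0.72 in wildtype hearts. Its difference was -0.45 (SE 0.24), and -0.14 without wildtype replicate 1. The amino acid transporter gene Slc38a1 read 0.32, 0.40, 0.54 and 0.46 in null hearts, against 1.72, 0.54, 0.15 and 0.45 in wildtype hearts. Its difference of -0.28 (SE 0.27) became 0.05 without that array. The 3 probes of Slc6a8 gave -0.77, -0.03 and -0.37, and those of Slc38a1 gave -0.29, 0.06 and 0.06.

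The same array was high for many carriers. Of the 11 carriers with lower values at p under 0.05, 9 had a value on wildtype replicate 1, and in 9 of these 9 it was the highest wildtype value. Over all carriers with a value on every wildtype array it was the highest in 34 of 68 (50%), and over all features in 34.5%. It was the lowest wildtype array in 16 of 68 carriers (23.5%), and over all features in 37.8%. The interquartile range of all features was also widest on this array, 0.65 against 0.39 to 0.58 on the others. Its part in the counts and differences is given by the values without it.

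**Figure D2:**
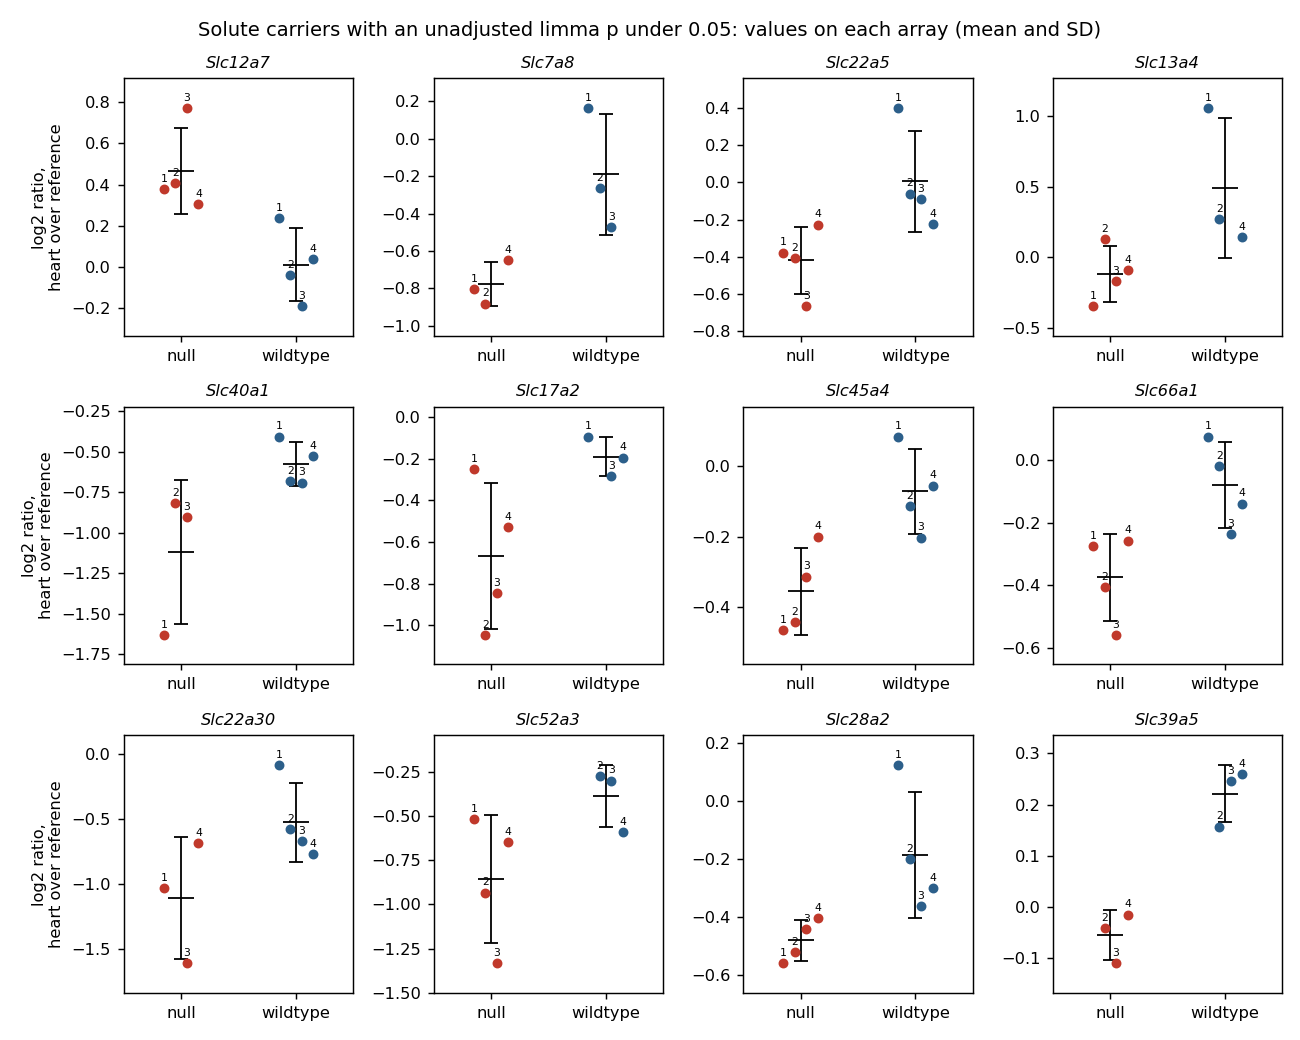
Log2 ratio of heart over reference for the 12 carriers with an unadjusted p under 0.05, with null arrays left and wildtype arrays right, 1 point per array marked with its replicate number, and mean and SD in black. Slc12a7 has higher values in null hearts, the other 11 lower ones, and wildtype replicate 1 tops the wildtype values wherever it was measured for these 11.

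Carriers of fuel acids and of carnitine had a median difference of -0.16 over 6 genes, of which 5 had lower values in null hearts. That median was -0.099 without null replicate 2, -0.0997 without wildtype replicate 1 and -0.069 with the replicate block. It was -0.089 with values on at least 2 arrays per genotype. With values on all arrays it was -0.028, over 3 genes only. Farther from 0, it was -0.29 without centring, -0.18 with quantile normalization, -0.19 with array weights and -0.21 without wildtype replicate 4. Slc22a5 encodes OCTN2, which imports the carnitine needed to bring fatty acids into mitochondria. It read -0.38, -0.41, -0.67 and -0.23 in null hearts, against 0.40, -0.06, -0.09 and -0.23 in wildtype hearts. The groups did not overlap, but null replicate 4 (-0.227) and wildtype replicate 4 (-0.226) were nearly equal. The difference was -0.42 (SE 0.15, 1.34-fold lower, adjusted p = 0.554 in limma), with -0.24 and -0.47 on its 2 probes and -0.29 without wildtype replicate 1.

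Genes of fatty acid transport proteins had differences of both signs. Slc27a2, known from liver and kidney, had -0.51 (SE 0.26), with -2.56, -2.81 and -1.64 in null and -1.85, -1.46, -2.04 and -1.95 in wildtype hearts, which overlap. Without null replicate 3 the difference was -0.27. Slc27a1 of muscle and fat had -0.23 (SE 0.20), and -0.084 without wildtype replicate 1. Slc27a4 had 0.13 (SE 0.14), and 0.026 without null replicate 1. Markers of liver, the organ in which Slc27a2 is best known, had lower values in null hearts for 3 of 4 measured members. The other member, Afp, had 0.32 (SE 0.11), with 2.33 to 2.59 in null and 2.07 to 2.29 in wildtype hearts, which do not overlap. Mean levels of the 4 markers were -1.25 to -0.60 in null and -0.94 to -0.52 in wildtype hearts, and their part was not tested.

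Iron, zinc, copper and heme carriers had lower values in null hearts for 13 of 18 measured members (median difference -0.10). The median was -0.054 without null replicate 1, -0.062 without wildtype replicate 2 and -0.13 without wildtype replicate 4. Slc40a1 encodes ferroportin, the iron exporter of macrophages, liver and gut. It read -1.63, -0.82 and -0.91 in null hearts, against -0.41, -0.68, -0.69 and -0.53 in wildtype hearts. The groups did not overlap, with a difference of -0.54 (SE 0.19, adjusted p = 0.556 in limma). Null replicate 1 was far below the others, and without it the difference was -0.29. Markers of macrophages had lower values in null hearts for 3 of 3 measured members. The mean level of the 2 measured on all arrays, Cd68 and Lyz2, overlapped between genotypes (-1.35 to -0.96 in null, -1.21 to -0.77 in wildtype). Fcgr3, left out of that mean, had -0.61 (SE 0.33), and its values also overlapped between genotypes. The part of these markers in the ferroportin values was not tested.

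Zinc carriers of the ZIP and ZnT families gave values in both directions. Among 7 measured ZIP genes (SLC39) 2 had higher and 5 lower values in null hearts, and among 6 ZnT genes (SLC30) the numbers were 2 and 4. Slc39a5 read -0.04, -0.11 and -0.01 in null hearts, against 0.16, 0.25 and 0.26 in wildtype hearts. These did not overlap, with a difference of -0.28 (SE 0.12). Slc39a13, a ZIP carrier of the Golgi, read -0.09, -0.14, -0.13 and -0.07 in null hearts, against -0.27, -0.36, -0.15 and -0.29 in wildtype hearts. It was the other carrier besides Slc12a7 whose null values all lay above the wildtype ones, with 0.16 (SE 0.10, adjusted p = 0.66 in limma). The metallothionein genes Mt1 and Mt2, which bind zinc, had 0.08 (SE 0.11) and -0.17 (SE 0.19).

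**Figure D3:**
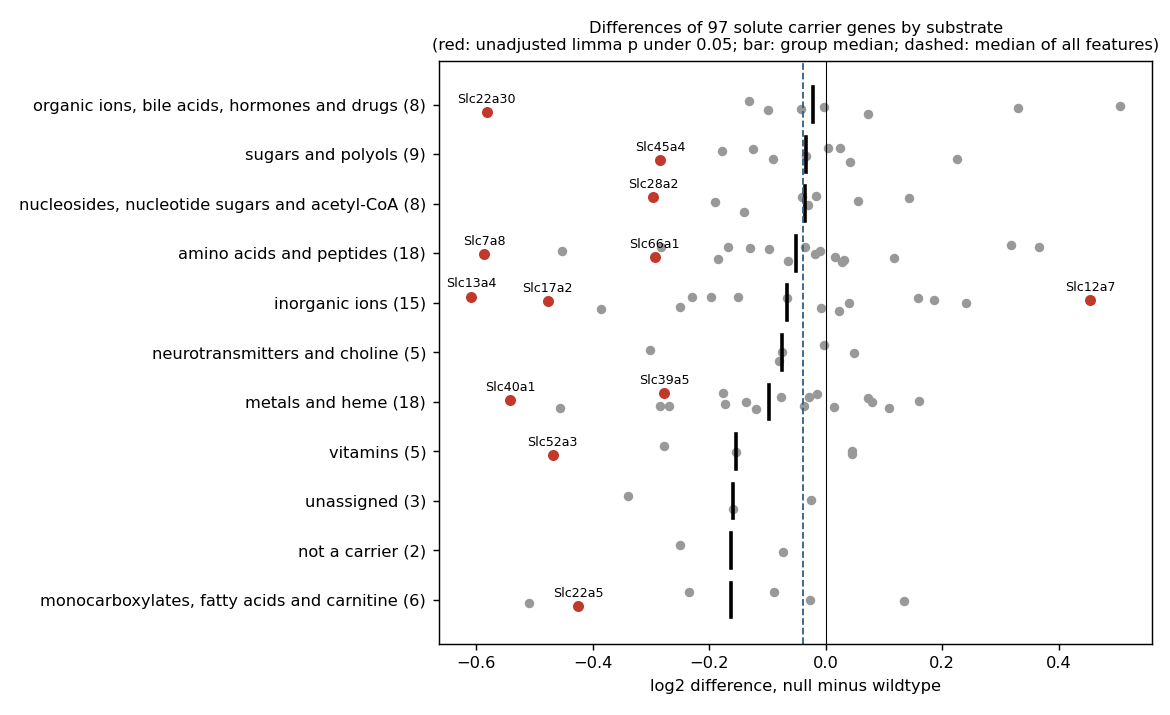
Log2 difference, null minus wildtype, of each of 97 carriers, grouped by transported substrate with the number of genes in brackets, the group median as a black bar and the median of all features, -0.04, as a dashed line. Group medians run between -0.16 and -0.02, and each group of at least 5 members holds genes on both sides of 0.

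Sugar carriers had a median difference of -0.03, with 4 of 9 genes higher and 5 lower in null hearts. Slc45a4 had -0.28 (SE 0.11), but its 2 probes gave -0.07 and -0.46. The glucose transporter gene Slc2a12 had -0.18 (SE 0.12). Slc37a4, which moves glucose-6-phosphate into the endoplasmic reticulum, had 0.04 (SE 0.13), with the highest ratio of any carrier, 1.15 ± 0.13 (SD, n = 4) in null and 1.11 ± 0.15 (SD, n = 3) in wildtype hearts. The set-aside glucose transporter gene Slc2a1 had 0.52 (SE 0.11, adjusted p = 0.37 in limma).

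Vitamin carriers had a median of -0.15 over 5 genes, and -0.02 without null replicate 1. Slc52a3, a riboflavin transporter, had -0.47 (SE 0.19), with -0.52, -0.93, -1.33 and -0.65 in null and -0.27, -0.30 and -0.59 in wildtype hearts, which overlap at null replicate 1. It was -0.31 without null replicate 3. The folate transporter gene Slc46a1 had -0.28 (SE 0.16), or -0.15 without null replicate 3, the multivitamin transporter gene Slc5a6 -0.15 (SE 0.17) and the ascorbate transporter gene Slc23a2 0.05 (SE 0.12).

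Carriers of nucleosides and nucleotide sugars had a median of -0.04, with 2 genes higher and 6 lower. Slc28a2, a sodium-coupled importer of nucleosides, read -0.56, -0.52, -0.44 and -0.41 in null hearts, against 0.12, -0.20, -0.36 and -0.30 in wildtype hearts. The groups did not overlap, with a difference of -0.30 (SE 0.12) and -0.33 and -0.26 on its 2 probes. It was -0.19 without wildtype replicate 1. The Golgi nucleotide sugar transporter genes Slc35a4 and Slc35a1 had 0.14 (SE 0.13) and -0.14 (SE 0.13).

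Carriers of organic ions, bile acids, hormones and drugs had a median of -0.02, with 3 of 8 genes higher and 5 lower. Slc22a30, a mouse organic anion transporter gene, had -0.58 (SE 0.23), with -1.03, -1.61 and -0.68 in null and -0.09, -0.58, -0.67 and -0.77 in wildtype hearts, which overlap. Without null replicate 3 it was -0.33. Slc22a18, an imprinted gene, had 0.51 (SE 0.36), and 0.15 without null replicate 2. Slc10a3 of the bile acid cotransporter family had 0.33 (SE 0.19), and 0.12 without wildtype replicate 2. Carriers of neurotransmitters and choline had a median of -0.08 over 5 genes, with the vesicular nucleotide transporter gene Slc17a9 at -0.30 (SE 0.16), the choline transporter-like gene Slc44a2 at -0.08 (SE 0.13) and the betaine and GABA transporter gene Slc6a12 at -0.08 (SE 0.12). Without a substrate assigned here, Slc49a4, Slc46a3 and Slc46a2 had -0.34 (SE 0.19, and -0.15 without wildtype replicate 1), -0.16 (SE 0.13) and -0.03 (SE 0.11), and the scaffold genes Slc9a3r1 and Slc9a3r2 -0.25 (SE 0.13) and -0.07 (SE 0.12).

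By place in the cell, 61 carriers of the plasma membrane had a median difference of -0.08 and 28 carriers of organelle membranes -0.03, beside -0.04 for all features. Of the plasma membrane carriers 18 had higher and 43 lower values in null hearts, and of the organelle carriers 11 and 17. The difference between the places was not tested.

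Slc34a2, singled out after its values were seen, encodes the sodium-phosphate cotransporter of the lung's alveolar type II cells. It read -1.71, -1.97 and -1.31 in null hearts, against -1.29, -1.27 and -1.27 in wildtype hearts. The groups did not overlap, though null replicate 4 lay just below the wildtype values, and the difference was -0.39 (SE 0.17, adjusted p = 0.59 in limma), and -0.23 without null replicate 3. All 3 measured markers of lung epithelium had lower values in null hearts as well, with Scgb1a1 at -0.59 (SE 0.15), Sftpc at -0.63 (SE 0.19) and Cbr2 at -1.39 (SE 0.24). The mean level of the 2 lung markers measured on all arrays was -3.33 to -2.93 in null and -2.80 to -2.29 in wildtype hearts, and these ranges do not overlap. Its part in the Slc34a2 values was not tested.

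**Figure D4:**
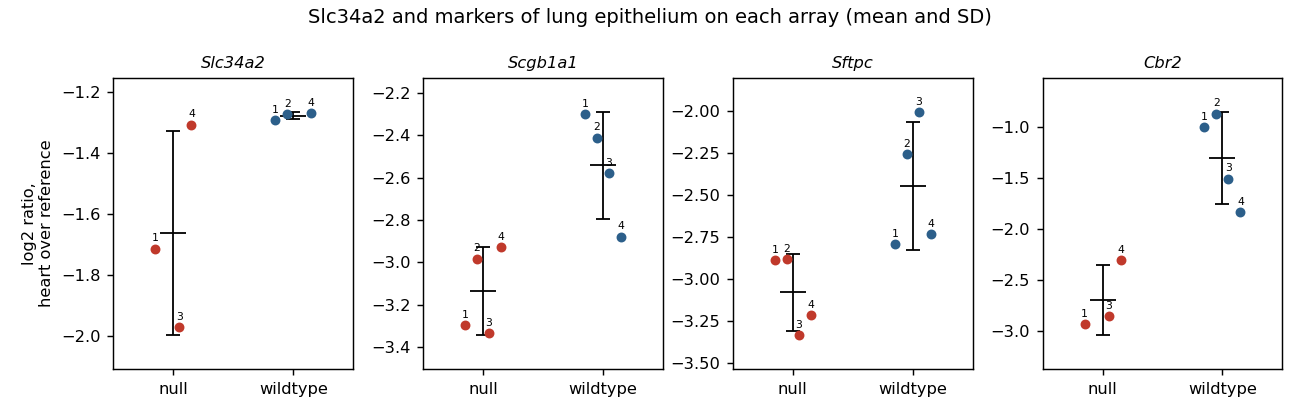
Log2 ratio of heart over reference for Slc34a2 and for 3 markers of lung epithelium on each array, null left and wildtype right, with replicate numbers beside the points and mean and SD in black. In each of the 4 genes all null values lie below all wildtype values.

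Partner genes, which supply, bind or assist what the carriers move, were listed as well. The list also held the carrier genes set aside by the rule, Slc2a1, Slc2a4, Slc4a1 and Slc8a1. Of 36 listed genes 24 were measured, 11 with higher and 13 with lower values in null hearts, and 0 had an adjusted p under 0.05 in limma. At an unadjusted p under 0.05 there were 3. These were the set-aside carrier gene Slc2a1 with higher values (beside 2.1% of all features) and Glul and Car4 with lower values (beside 6.13%). Glul, which encodes glutamine synthetase, read -1.42, -1.01, -1.45 and -1.06 in null hearts, against -0.47, -0.83, -0.47 and -0.76 in wildtype hearts, which do not overlap. Its difference was -0.60 (SE 0.14, 1.52-fold lower, adjusted p = 0.42 in limma), and -0.68 to -0.53 with any 1 array left out. Car4, a carbonic anhydrase of the cell surface, had -0.92 (SE 0.33) over 3 arrays per genotype, and -0.48 without wildtype replicate 1. Basigin, the chaperone that brings lactate transporters to the surface, had 0.19 (SE 0.12) at Bsg.

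The probes of a carrier did not always share a sign. Of the 29 measured carriers with several probes 18 (62.1%) had probes on both sides of 0. The share over all genes with several probes was not worked out, so this count is not read as a trait of carriers. Slc12a7, Slc22a5, Slc28a2 and Slc20a2 were among those whose probes shared a sign, and 8 of the 12 carriers with p under 0.05 rested on 1 probe. With each array left out in turn, 2 of these 12 kept an unadjusted p under 0.05 in all 8 omissions, Slc12a7 and Slc7a8. Slc7a8 has no value on 2 of the 8 arrays, so leaving those out removes none of its own values.

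**Figure D5:**
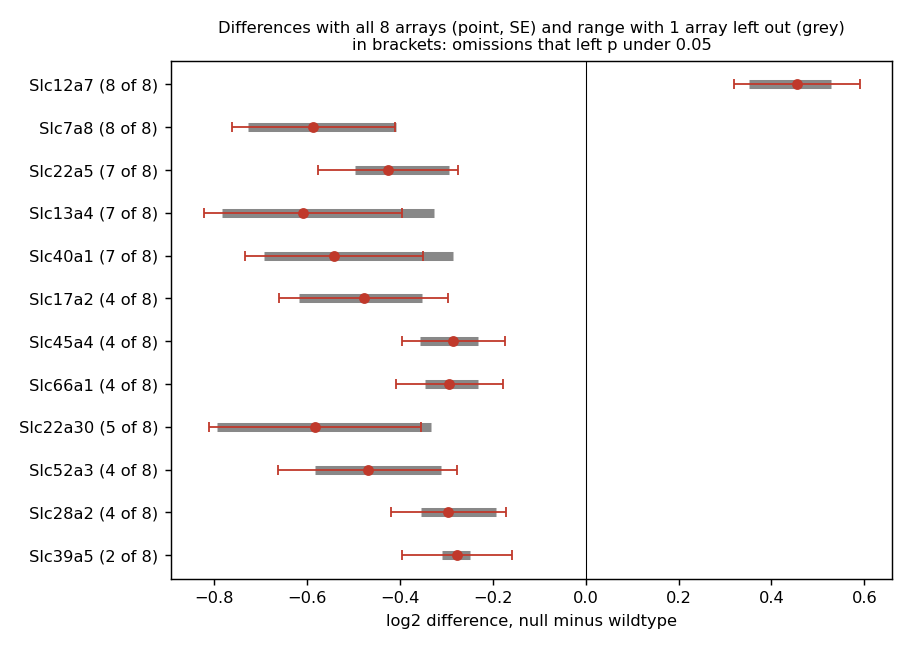
Log2 difference, null minus wildtype, of the 12 carriers with an unadjusted p under 0.05, as a red point with its standard error, and in grey the range with 1 of 8 arrays left out. No range crosses 0, and the bracket gives how many of the 8 omissions left p under 0.05. The 12 genes were picked by their p on these same 8 arrays, so the ranges are no separate test.

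The 42 members without a test, 2 of which encode no carrier, included lactate, glucose and amino acid carriers of interest in other organs. Among them were Slc16a3, Slc2a2, Slc1a3 and Slc7a11. Of these 42, 6 had no value on any array, 26 had values on more wildtype than null arrays (61.9%) and 6 on more null than wildtype arrays (14.3%). Over all 2622 named genes without a test the shares were 45.8% and 23.9%. Why spots lack a value is not given in the sources used here. Slc16a3, which encodes the lactate exporter MCT4, read 0.20, 0.27, 0.17 and 0.19 in null hearts, against 0.33 and 0.49 on the 2 wildtype arrays with a value.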

How the data were processed

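Sample descriptions give Cy3 to the heart pool and Cy5 to the common reference, while the channel fields list the reference first and name no dye. The deposited values are log2 ratios. No source states the base, which was read from the values: within 48 blocks of spots, value differences matched logs of whole-number ratios (numbers to 120, tolerance 1.5e-09) 8347 times in base 2, 269 times in base e and 863 times in base 10. Scanner, background correction, spot filter and scaling by the authors are not stated in what was used here. Heart genes chosen after their values were seen gave the direction of the ratio, in which Gja1 read lower in null hearts. Probe names came from the platform annotation, and by gene number 139 of 139 members were found in the RefSeq table of GRCm38.p6.

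Arrays were centred on their medians. Probes sharing a symbol were combined by least squares on probe and array, and an array with no value left that gene's fit. Null minus wildtype was tested over 11804 features with limma 3.58.1 in R 4.3.3 (lmFit, eBayes, Benjamini-Hochberg over all features, threshold 0.05). Pools are separate by title, so p-values reflect spread among pools of 3 hearts. The script was tested on simulated data. Figures used matplotlib 3.10.9 under Python 3.11.15.

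Members, substrate groups, markers, partners and alternatives were chosen with earlier results of these data known. Named genes were, in each direction, the 8 smallest p, up to 3 per substrate group, the 6 highest and 6 lowest wildtype ratios on all 8 arrays, and partners with an unadjusted p under 0.05. Slc34a2, Slc3a2, Slc27a4, Slc37a4, Slc20a2, Slc16a3, Bsg, Mt1 and Mt2 were added after their values were seen, and promoters replaced the planned proteins. Alternatives were no centring, quantile normalization, values on all 8 arrays or on at least 2 per genotype, 1 probe per gene, robust eBayes with a trend, array weights, each array left out, the replicate number as a block and, chosen after seeing the data, centring within blocks.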

Additional observations from a re-analysis of the deposited data

Results flagged for a closer look

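Slc49a4, a solute carrier with no substrate assigned here, read 0.83 on wildtype replicate 1, against 0.01 to 0.12 on the other wildtype arrays, a gap of 0.872 of the group's whole range, past Dixon's 95% critical value. This was 1 of 88 groups of 4 tested. Chance flags about 1 in 20 groups.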

How the results depend on the processing

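Under every alternative run, 0 features and 0 carriers had an adjusted p under 0.05 in limma, and Gja1 kept its direction. At an unadjusted p under 0.05, carriers with higher values numbered 0 without centring (beside 0.237% of features), 2 with array weights (2.91%) and 2 with the replicate block (1.68%). They numbered 1 to 2 with 1 array left out (1.44% to 2.62%). Carriers with lower values numbered 4 of 60 with values on all arrays (beside 5.45% of features) and 6 of 97 with the replicate block (4.49%). With 1 array left out they numbered 5 to 14 of 97 (4.27% to 6.38%). Deviations of same-numbered pools correlated at -0.24, -0.01, -0.25 and -0.02, so no deviation shared by same-numbered pools was seen. Whether the numbers pair the arrays by design cannot be told from these values. Without centring the median of all features was -0.18, and 28 features had higher and 1364 lower values at p under 0.05, against 248 and 724 with it. Medians without centring were -0.20 for all carriers, -0.19 for amino acids, -0.26 for metals, -0.19 for organic ions and -0.19 for sugars. The vitamin median was -0.012 with the replicate block and -0.21 to -0.019 with 1 array left out, the end nearest 0 without null replicate 1. Some named differences changed sign, and the cause was not tested. Without centring, Slc23a2 had -0.11, Slc35a4 -0.015 and Slc39a10 -0.085. Centring within blocks gave 0.0059 for Slc16a1, 0.072 for Slc38a2 and 0.035 for Slc46a2. Array weights gave -0.033 for Slc23a2, 0.12 for Slc35a5, 0.046 for Slc38a2, 0.026 for Slc44a2, -0.024 for Slc4a5 and 0.014 for Slc9a3r2. With values on all arrays, and likewise with 1 probe per gene, Slc35a5 had 0.098 and Slc9a3r2 0.051, and with 1 probe per gene Slc44a2 had 0.12. The replicate block gave 0.0033 for Slc6a12. With 1 array left out, Slc16a1 ran between -0.11 and 0.068, Slc23a2 between -0.026 and 0.088, Slc35a5 between -0.17 and 0.12, Slc38a1 between -0.47 and 0.053, Slc38a2 between -0.082 and 0.067, Slc44a2 between -0.13 and 0.030, Slc46a2 between -0.072 and 0.030, and Slc4a5 between -0.024 and 0.25. The number of arrays and missing spots limit precision.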
